A study of Rattus norvegicus with 16 samples.

Results

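The 4 genes described here are *Nr3c1* (ENSRNOG00000014096), *Nr3c2* (ENSRNOG00000034007), *Fkbp5* (ENSRNOG00000022523) and *Sgk1* (ENSRNOG00000011815), the corticosteroid receptors and a pair of their target genes. They were picked by Ensembl identifier from the 32883 genes of an RNA-Seq count table of the rat fetal suprachiasmatic nuclei (SCN). The selection rule used none of their measured values, but it was set with earlier results of these data known. The fetuses came from pregnant Wistar rats, all of which were anesthetized, had electrodes lowered to the SCN and were then kept in constant darkness until they were killed. In Group A (SHAM, ad libitum) no current was passed and food was always present. In Group B (SCN-X, tRF) the maternal SCN was destroyed by current and food was offered for part of each day, starting at circadian time (CT) 12. CT12, the onset of subjective night, was set by the onset of free-running activity in Group A and by that of food-related activity in Group B. The same CT thus rests on a different event in each group. Each group gave 8 libraries, 1 at each of 8 times from CT0 to CT21, and a library is a pool of SCN punches from fetuses of 1 litter. The labels give embryonic day 17 and 8 fetuses per pool, whereas the protocol gives 8 for Group A and 5 to 10 for Group B and the methods of the study give E19 as the fetal age.

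Circulating glucocorticoids enter cells and bind *Nr3c1*, the glucocorticoid receptor, or *Nr3c2*, the mineralocorticoid receptor, which binds the same hormones with higher affinity. Without hormone, the receptors sit in the cytoplasm in a complex with heat shock proteins. The hormone-bound receptors move to the nucleus and change transcription of genes such as *Fkbp5*, a co-chaperone that in turn lowers the receptor's affinity for hormone, and *Sgk1*, a kinase that regulates ion channels and transporters. In adult animals, glucocorticoid secretion follows a daily rhythm driven by the SCN, and the receptor is found in most tissues but is scarce in the adult SCN itself. Maternal glucocorticoids reach the fetus in part, since the placenta inactivates a share of them. The comparison of Group A with Group B asks whether these transcripts in the fetal SCN follow the time of day when the maternal SCN is present, and when it is absent but feeding is timed.

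The libraries held 10047500 to 18738585 counts, the deepest being CT9 of Group B, and 13685 genes reached 1.5 CPM (counts scaled to a common library total) in at least 3 libraries. All 4 genes of interest were among these 13685 genes. The counts of each gene were large for *Fkbp5* (503 to 916 per library), intermediate for *Nr3c1* (239 to 453) and *Sgk1* (249 to 405) and small for *Nr3c2* (17 to 66). Below, levels are CPM after TMM scaling, and differences are on the log2 scale. Gene lengths were not used here, so levels are compared between libraries for 1 gene and never between genes. Libraries of 1 group were alike, with mean correlations of log2 CPM within the group between 0.976 and 0.984, and CT3 of Group B had the lowest. In tissue punches, a lower share of cells that express a gene cannot be told apart from less RNA of that gene per cell. The labelled tissue was not checked against marker genes, as no symbols were at hand for other genes of the table. Since each group has 1 litter per time, p-values rest on the scatter of libraries around a fitted level or curve, and time and litter are the same unit. The comparison of Group B with Group A has no time term, so its scatter also holds any variation over time.

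*Nr3c1*, the glucocorticoid receptor, was found in every library, and its level did not differ detectably between the groups. In Group A, the level from CT0 to CT21 in 3-h steps was 21.0, 26.0, 31.6, 27.0, 23.7, 25.7, 27.3 and 27.5 CPM. In Group B, the corresponding levels were 26.1, 32.1, 26.8, 24.3, 21.7, 25.9, 27.1 and 30.3 CPM. Group A was lowest at CT0 and highest at CT6, Group B was lowest at CT12 and highest at CT3, and the ranges of the groups overlapped almost fully. The mean was 26.2 ± 3.08 CPM in Group A and 26.8 ± 3.24 CPM in Group B (SD, n = 8 libraries each), a log2 difference of 0.03 (95% interval -0.14 to 0.20, edgeR adjusted p = 0.978). Group B was above Group A at 4 of the 8 matched times. The largest gap stood at CT0 (0.31 higher in Group B, log2).

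*Nr3c2*, the mineralocorticoid receptor, was present at low counts and varied most. The levels in Group A were 4.14, 3.55, 5.49, 2.09, 3.16, 2.80, 3.63 and 2.42 CPM from CT0 to CT21. In Group B they were 3.09, 3.70, 2.49, 2.26, 1.18, 3.41, 2.45 and 4.30 CPM. CT6 of Group A was the highest of all 16 libraries and CT12 of Group B the lowest, with 66 and 17 counts. Their 95% counting intervals (4.25 to 6.99 and 0.685 to 1.88 CPM, exact Poisson) did not overlap. These extremes were picked by their level, and the intervals leave out variation between litters, so this is a description only. The mean was 3.41 ± 1.08 CPM in Group A and 2.86 ± 0.974 CPM in Group B (SD, n = 8 libraries each). This log2 difference of -0.27 had an interval from -0.76 to 0.22 (edgeR adjusted p = 0.925), so neither a fall by 0.76 nor a rise by 0.22 lies outside it. Without CT6 of Group A, the library with the highest level, the log2 difference was -0.14. The coefficient of variation was 31.6% in Group A, against 15.8% from counting alone, and 34.1% in Group B against 17.4%.

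**Figure D1:**
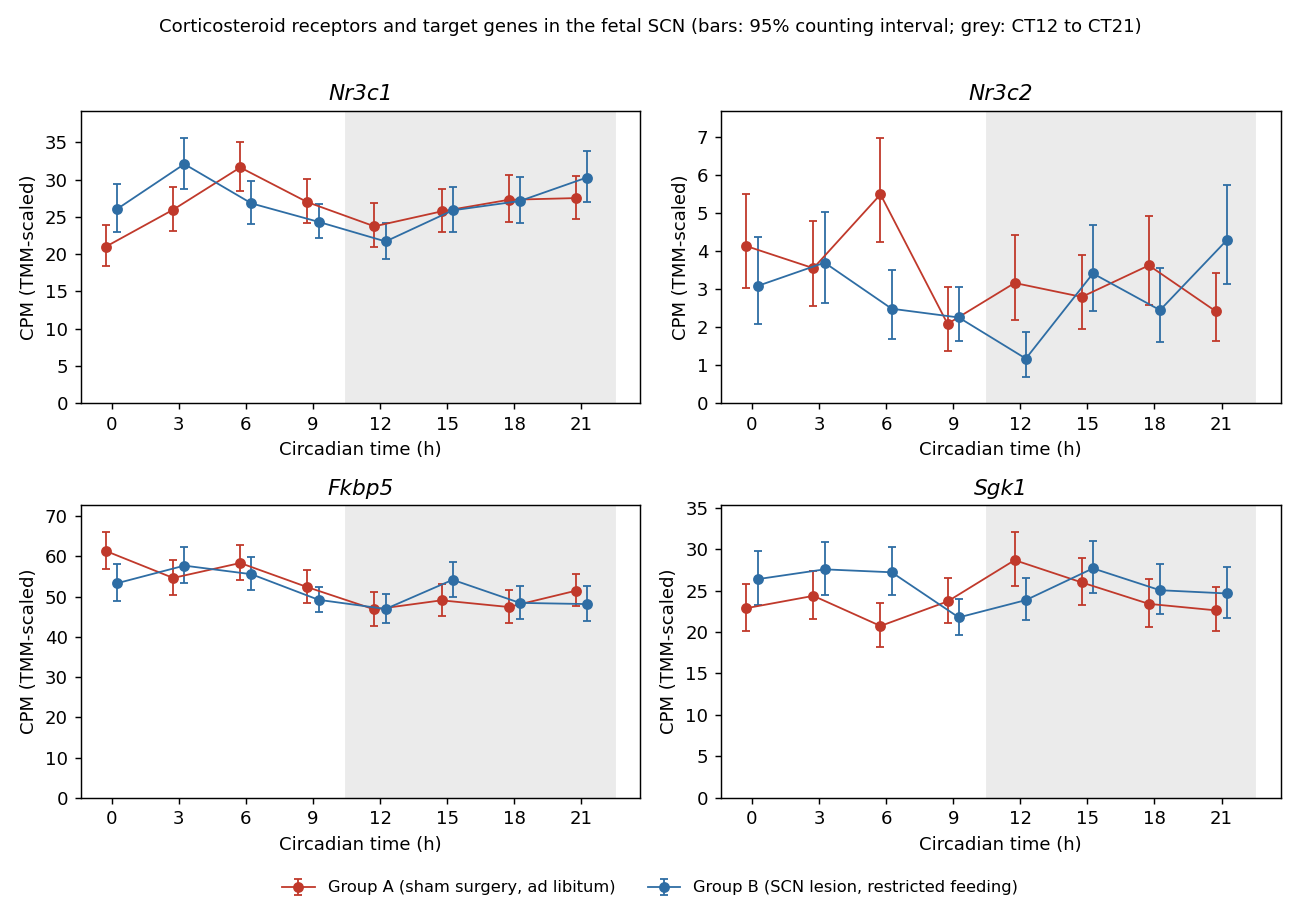
Level (CPM after TMM scaling, y axis from 0) of each of the 4 genes against circadian time (h), red for Group A and blue for Group B. Each point is 1 library, bars are exact 95% Poisson counting intervals that leave out the variation between litters, lines join points of a group, and grey marks CT12 to CT21. *Fkbp5* lies between 46.8 and 61.3 CPM with lower points in the grey area, whereas *Nr3c2* has the widest bars.

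The balance of the receptors was followed as the ratio of *Nr3c1* to *Nr3c2* counts in each library, which library size cannot alter. Its absolute size also depends on transcript length, so only its changes between libraries are described. In Group A the ratio ran from 5.09 at CT0 to 12.9 at CT9, with a median of 7.51. In Group B it ran from 7.04 at CT21 to 18.5 at CT12, with a median of 9.73. The value at CT12 of Group B was well above the next in that group, 11.1 at CT18, and it rests on 17 counts of *Nr3c2*. Apart from that library, the groups covered overlapping ranges.

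*Fkbp5* and *Sgk1* are the target genes in the set, and the sequence before their transcription start is shown because hormone-bound receptors act through DNA. RefSeq promoters (rat build GRCr8, which differs from the build of the counts) were found for 3 of the 4 genes, with none for *Nr3c2*. The 250 bases before the start are printed, 5′ to 3′ on the gene's strand, for *Fkbp5* (chr20:6543556-6543805, minus strand) and for the third of 3 annotated starts of *Sgk1* (chr1:24804832-24805081, minus strand). This start of *Sgk1* was picked after its sequence was seen, because TATAAA lies close to it. Capitals mark CCAAT in *Fkbp5* and TATAAA in *Sgk1*.
Fkbp5: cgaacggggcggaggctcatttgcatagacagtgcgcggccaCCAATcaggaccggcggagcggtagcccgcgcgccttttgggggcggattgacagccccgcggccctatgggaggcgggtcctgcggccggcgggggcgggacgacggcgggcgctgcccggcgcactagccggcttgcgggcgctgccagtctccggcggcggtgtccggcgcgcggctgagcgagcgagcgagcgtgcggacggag
Sgk1: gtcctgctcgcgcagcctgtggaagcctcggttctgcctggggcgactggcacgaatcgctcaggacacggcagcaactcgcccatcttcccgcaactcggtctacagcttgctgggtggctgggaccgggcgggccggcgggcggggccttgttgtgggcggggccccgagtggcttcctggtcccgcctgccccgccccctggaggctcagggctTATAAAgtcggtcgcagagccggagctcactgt

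The printed windows are rich in G and C (76.0% for *Fkbp5* and 69.6% for this start of *Sgk1*, against a median of 51.2% over the 33469 promoters of the table). The first and second starts of *Sgk1*, which are not printed, hold 39.2% and 49.6%, both below that median. CCAAT stood 208 to 204 bases before the *Fkbp5* start, and TATAAA stood 33 to 28 bases before the printed *Sgk1* start and 55 to 50 bases before the first start. Of all promoter windows of this length, 34.0% hold CCAAT and 12.9% hold TATAAA on either strand. GGGCGG, the core of GC boxes, was found 3 times in the *Fkbp5* window and 4 times in the printed window of *Sgk1*, against 0 and 2 times at its other starts, and 30.5% of all windows hold it. The palindrome bound by steroid receptors as a dimer was searched as GAACA and TGTTC around any 3 bases (0.0418% of all windows), in a looser form with GNACA and TGTNC as the arms (0.373%) and as the single hexamer TGTTCT (17.5%), on both strands. None of these was found in any window of *Nr3c1*, *Fkbp5* or *Sgk1*, nor was the E-box CACGTG (5.59% of all windows) that clock proteins bind. These counts describe the letters of the windows only, and many receptor sites lie outside such windows.

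*Fkbp5* was the only gene of the set whose Group A levels separated subjective day from subjective night. In Group A, its level was 61.3, 54.6, 58.4 and 52.4 CPM from CT0 to CT9 and 46.8, 49.1, 47.4 and 51.5 CPM from CT12 to CT21. In Group B, it was 53.3, 57.7, 55.6 and 49.2 CPM from CT0 to CT9 and 46.9, 54.2, 48.5 and 48.2 CPM from CT12 to CT21. All 4 subjective night libraries of Group A lay below all 4 day libraries, a separation in this direction that 2.18% of the 13685 genes also showed. In Group B, where 2.57% of genes had all night libraries below all day libraries, the *Fkbp5* ranges overlapped, since CT9 was among the lower libraries and CT15 among the higher. CT12 had the lowest level in both groups, and these values of 46.8 and 46.9 CPM were nearly equal. Averaged over time, *Fkbp5* was 52.7 ± 5.17 CPM in Group A and 51.7 ± 4.0 CPM in Group B (SD, n = 8 libraries each), a log2 difference of -0.03 (95% interval -0.15 to 0.10, edgeR adjusted p = 0.970).

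*Sgk1* had a different order of libraries. Group A gave 22.9, 24.4, 20.7, 23.7, 28.7, 26.0, 23.4 and 22.6 CPM from CT0 to CT21. Group B gave 26.4, 27.6, 27.2, 21.8, 23.8, 27.7, 25.04 and 24.6 CPM. The highest of all libraries was CT12 of Group A and the lowest CT6 of Group A, with counting intervals that did not overlap (25.6 to 32.1 and 18.2 to 23.5 CPM). The intervals of the highest and lowest libraries were also apart for *Nr3c1* and *Fkbp5*. Such extremes are picked by their level, and counting intervals leave out variation between litters, so this tests neither time nor group. Group B was above Group A at 6 of the 8 times, and 6 of the 8 highest libraries were of Group B. The mean was 24.04 ± 2.40 CPM in Group A and 25.5 ± 2.08 CPM in Group B (SD, n = 8 libraries each). The log2 difference of 0.08 had an interval of -0.06 to 0.23 (edgeR adjusted p = 0.912).

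None of the 4 genes thus passed the comparison of Group B with Group A at an adjusted p of 0.05, in edgeR's quasi-likelihood test over the 13685 genes. The background was the same, with 0 genes called (0%) by edgeR and 0 by DESeq2, and 795 genes (5.81%) had an unadjusted edgeR p below 0.05, with none of the 4 among them. When the 16 libraries were put in order of level, every one of the 15 neighboring pairs overlapped in counting interval for each of the 4 genes. Sorting puts like levels side by side, so this overlap is no test of equal levels. Libraries whose interval cleared that of the lowest library numbered 8 for *Nr3c1*, 10 for *Nr3c2*, 4 for *Fkbp5* and 4 for *Sgk1*. Neither of these counts was set against the other genes.

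The scatter between libraries, which holds time and litter together, differed between the genes. After group means were removed, the biological coefficient of variation of edgeR was 8.41% for *Fkbp5*, 9.12% for *Sgk1*, 11.1% for *Nr3c1* and 28.5% for *Nr3c2*, against a median of 10.7% over all genes. Among the 1000 genes nearest in level, 69.2% varied less than *Fkbp5*, 30.8% less than *Sgk1*, 71.4% less than *Nr3c1* and 81.2% less than *Nr3c2*. *Sgk1* thus varied less than most genes of its level, and the other 3 genes varied more than most.

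A 24-hour cosine with the same phase in both groups was fitted next. *Fkbp5* peaked at CT2.97 with a log2 peak-to-trough ratio of 0.25 (95% interval 0.07 to 0.43), which is a 1.19-fold range. Its edgeR p was 0.00628 before and 0.196 after adjustment over all genes, and DESeq2's likelihood ratio test gave 0.00435 and 0.116, so neither tool called it. *Nr3c2* had the largest fitted ratio, 0.67 with a peak at CT0.368, but its interval ran from 0 to 1.51 (adjusted p = 0.576). The ratio was 0.16 for *Nr3c1* (peak CT1.24, adjusted p = 0.790) and 0.07 for *Sgk1* (adjusted p = 0.946). A fitted ratio cannot fall below 0 on the log2 scale, and its median over all genes was 0.16. With 1 library left out, the *Nr3c1* ratio moved between 0.09 (without CT12 of Group B) and 0.28 (without CT0 of Group A, where the unadjusted edgeR p was 0.046), and that of *Sgk1* between 0.04 and 0.12 (without CT15 and without CT3 of Group B). Over all genes, edgeR called 47 (0.343%) and DESeq2 266 (1.94%) at an adjusted p below 0.05, and 1638 (12%) had an unadjusted edgeR p below 0.05. Of the 4 genes, *Fkbp5* alone was among the latter.

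Fitted for each group, the *Fkbp5* cosine had a log2 peak-to-trough ratio of 0.32 in Group A (0.06 to 0.59, peak CT2.76, edgeR adjusted p = 0.600) and 0.18 in Group B (0 to 0.44, peak CT3.36, adjusted p = 0.663). The unadjusted p in Group A was 0.0155. The median fitted ratio of all genes was 0.21 in Group A, 0.22 in Group B and 0.28 for the difference of the cosines. *Fkbp5* was thus above the median gene in Group A and below it in Group B. With 1 library left out, the Group B ratio moved between 0.13 (without CT3) and 0.31 (without CT15 of Group B, where the unadjusted p fell to 0.0306). That of Group A moved between 0.26 (without CT0 of Group A, where the unadjusted p rose to 0.0552) and 0.40 (without CT3 of Group A). The fitted peak times of the groups differed by less than the 3-h sampling step. No interval was computed for them, and the Group B amplitude interval reached 0, so its peak time is not fixed. The test of the difference between these cosines gave an adjusted p = 0.930, and the amplitude of that difference had an interval of 0 to 0.52. *Nr3c1* had fitted ratios of 0.12 in Group A with a peak at CT7.98 and 0.36 in Group B with a peak at CT23.9 (edgeR adjusted p = 0.943 and 0.546), and the difference of the cosines did not pass (adjusted p = 0.834). *Nr3c2* gave 0.57 in Group A, with a peak at CT3.30, and 1.01 in Group B, with a peak at CT22.8 (adjusted p = 0.866 and 0.558, with 0.881 for the difference). *Sgk1* gave 0.24 in Group A, with a peak at CT13.5, and 0.14 in Group B, with a peak at CT23.8 (adjusted p = 0.796 and 0.876, with 0.839 for the difference). Single libraries moved these ratios as well. In Group A, the ratio ranged from 0.10 to 0.23 for *Nr3c1*, from 0.42 to 0.79 for *Nr3c2* and from 0.14 to 0.35 for *Sgk1*. In Group B, it ranged from 0.27 (without CT12) to 0.52 (without CT0) for *Nr3c1*. The Group B range was 0.63 (without CT12) to 1.36 (without CT15) for *Nr3c2* and 0.10 to 0.24 for *Sgk1*. Over these Group B fits, the lowest unadjusted edgeR p was 0.0283 for *Nr3c1* and 0.0334 for *Nr3c2* (lowest adjusted p 0.449 and 0.392). The differences of the cosines moved between 0.25 and 0.59 for *Nr3c1*, 0.60 and 1.38 for *Nr3c2* and 0.04 and 0.23 for *Fkbp5*. At an adjusted p below 0.05, edgeR called 1 gene in Group A (0.00731%), 13 in Group B (0.095%) and 0 for the difference, and DESeq2 called 26 (0.19%), 133 (0.972%) and 4 (0.0292%). None of the 4 genes was called by either tool, but DESeq2 gave no adjusted p for the *Nr3c2* cosine in Group A. At an unadjusted p below 0.05, these numbers were 1020 (7.45%), 1462 (10.7%) and 836 (6.11%), and only the *Fkbp5* cosine in Group A was among them.

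**Figure D2:**
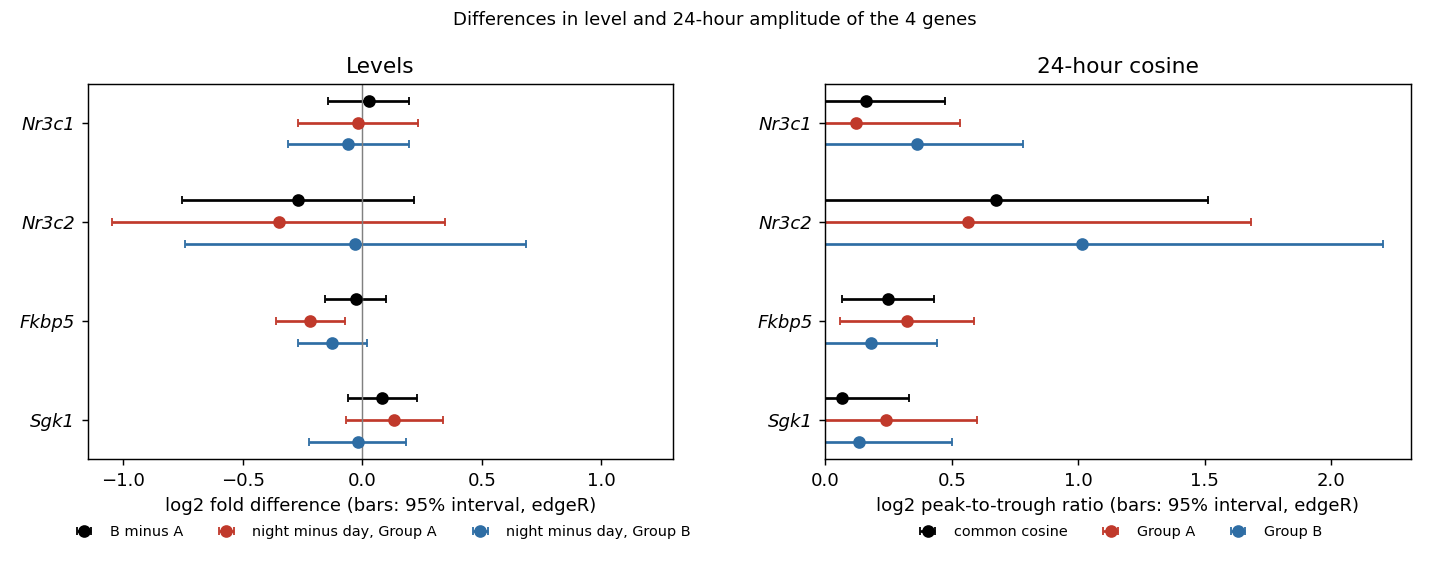
Left, log2 differences in level of the 4 genes between Group B and Group A (black) and between subjective night and day for each group in the colors of its libraries (red, Group A; blue, Group B); right, log2 peak-to-trough ratio of a 24-hour cosine shared by the groups (black), in Group A alone (red) and in Group B alone (blue). Points are edgeR estimates and bars 95% intervals. On the left, only the *Fkbp5* interval for night against day in Group A leaves out 0, and on the right, only those of *Fkbp5* for the common cosine and for Group A do.

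Subjective night (CT12 to CT21) was then set against subjective day (CT0 to CT9) without assuming a curve, with 4 libraries in each. In Group A, *Fkbp5* was 56.7 ± 3.96 CPM by day and 48.7 ± 2.08 CPM by night (SD). The log2 difference was -0.22 (95% interval -0.36 to -0.07), the edgeR p was 0.00501, and the adjusted p of 0.440 did not pass. Without CT0 and CT12, the times at the borders of day and night, the difference was -0.16 and its unadjusted p rose to 0.0676. In Group B, the *Fkbp5* means were 54.0 ± 3.63 CPM by day and 49.4 ± 3.24 CPM by night, a log2 difference of -0.13 (-0.27 to 0.02, edgeR adjusted p = 0.634). The differences in Group A and Group B were not distinguishable (0.09 on the log2 scale, -0.11 to 0.30, edgeR adjusted p = 0.997).

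*Sgk1* in Group A stood at 22.9 ± 1.58 CPM by day and 25.2 ± 2.74 CPM by night, a log2 difference of 0.13 (-0.07 to 0.34, edgeR adjusted p = 0.797), the opposite sign to *Fkbp5*. In Group B the *Sgk1* means were 25.7 ± 2.69 and 25.3 ± 1.66 CPM, and the difference of -0.02 had an interval of -0.22 to 0.18. The receptors showed no clear split by day and night either, with log2 differences of -0.02 in Group A and -0.06 in Group B for *Nr3c1* and of -0.35 and -0.03 for *Nr3c2*. All 4 of these intervals included 0, and the *Nr3c2* interval in Group A was wide (-1.05 to 0.35). Over all genes, edgeR called 0 in Group A and 1 in Group B (0.00731%) at an adjusted p below 0.05, and DESeq2 called 20 (0.146%) and 67 (0.49%). None of the 4 genes was among these, but DESeq2 gave no adjusted p for *Nr3c2* in Group B. An unadjusted edgeR p below 0.05 was found for 1092 (7.98%) and 1203 (8.79%), *Fkbp5* in Group A being the only one of the 4. For the difference between the groups, edgeR called 0 genes and DESeq2 1 (0.00731%), and 569 (4.16%) had an unadjusted p below 0.05, with none of the 4 genes among them.

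**Figure D3:**
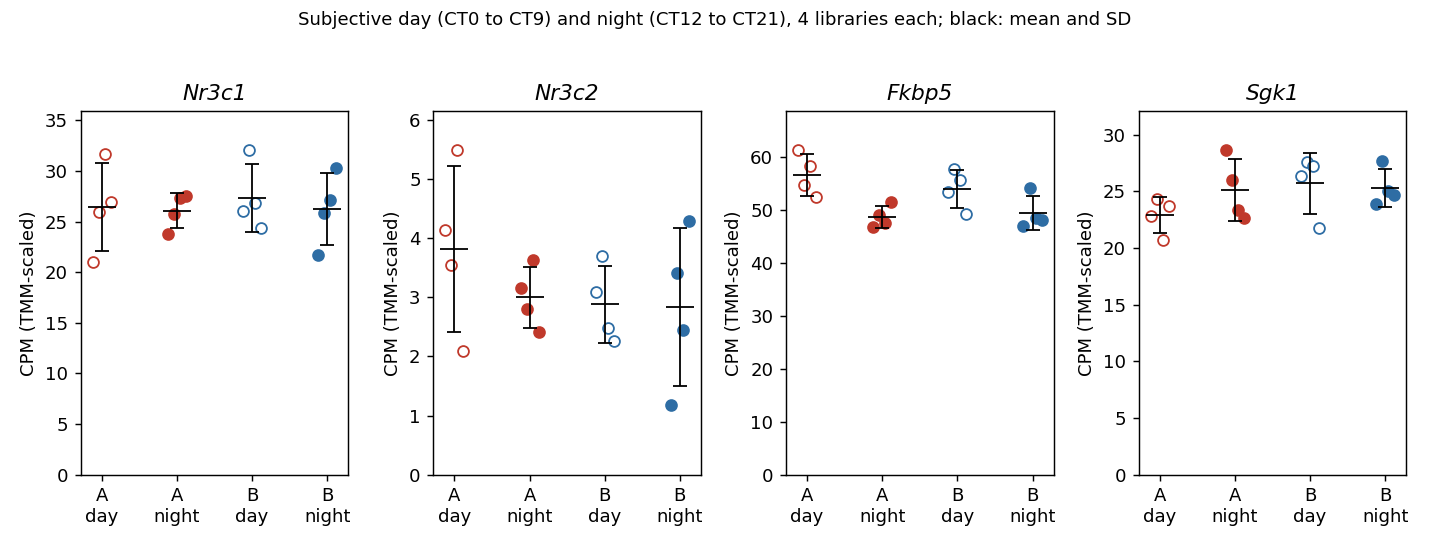
Level (CPM after TMM scaling, y axis from 0) of the 4 genes in subjective day (CT0 to CT9, open circles) and subjective night (CT12 to CT21, filled circles), in red for Group A and blue for Group B. Each circle is 1 of 4 libraries, and black bars are the mean and SD. For *Fkbp5* in Group A, the night circles (46.8 to 51.5 CPM) all lie below the day circles (52.4 to 61.3 CPM).

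Model selection after the procedure of the study assigned each gene to 1 of 5 models by its Bayes information criterion weight (BICW), namely no rhythm, a rhythm of Group A alone (*Arhy*) or of Group B alone (*Brhy*), and a rhythm of both with shared (*ABsync*) or separate (*ABdiff*) phase and amplitude. *Fkbp5* was assigned to *ABsync* with a BICW of 0.603, and *Arhy* came next with 0.250. Gaussian fits to CPM without TMM scaling assigned it to *ABsync* as well, with a weight of 0.748. Of all genes, 5.03% were assigned to *ABsync*, and 12% to any rhythmic model. This procedure picks the best of 5 models and gives no p-value. The *Fkbp5* call was kept in 13 of 16 fits that each left out 1 library. It fell below the threshold of 0.5 without CT3, CT6 or CT12 of Group B (BICW 0.364, 0.465 and 0.424), and was 0.501 without CT18 of Group B. Leaving out a Group A library gave 0.524 (CT3) to 0.571 (CT21). The call thus lay near the threshold in many fits and depended on single libraries of Group B. The BICW was highest without CT15 of Group B (0.871).

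*Sgk1* was assigned to no rhythm with a BICW of 0.717, as were 69.2% of all genes, and stayed there in 16 of 16 fits with 1 library left out. *Nr3c1* was assigned to no rhythm by a narrow margin (0.510), followed by *Brhy* (0.338). Its assignment was kept in 9 of the 16 fits, it was unassigned in 6, and it turned to *Brhy* without CT0 of Group B. *Nr3c2* was not assigned, with 0.420 for no rhythm, 0.270 for *Brhy* and 0.212 for *ABsync*. It was unassigned in 14 of the 16 fits with 1 library left out and assigned to no rhythm in 2, without CT12 or CT21 of Group B. Its weight of no rhythm moved between 0.188 (without CT15 of Group B) and 0.668 (without CT12 of Group B).

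**Figure D4:**
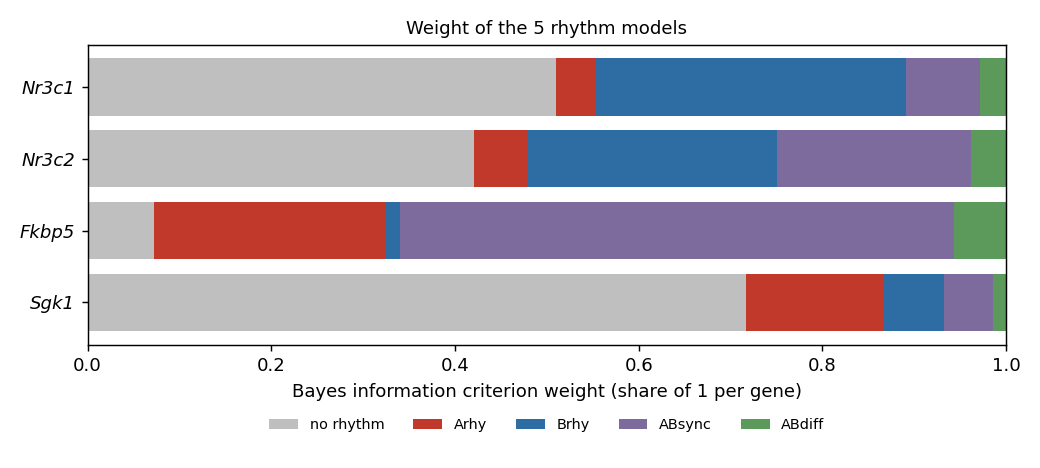
Bayes information criterion weight (x axis, adding up to 1 per gene) of the 5 rhythm models for each gene, as stacked bars, where the length of a segment is the weight of that model. *Sgk1* is mostly no rhythm (0.717), *Fkbp5* mostly *ABsync* (0.603), *Nr3c1* divides mostly between no rhythm and *Brhy*, and *Nr3c2* between no rhythm, *Brhy* and *ABsync*.

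The 4 genes were also compared with each other over the 16 libraries, in 6 pairs. The closest pairs were *Nr3c2* with *Fkbp5* (Pearson r = 0.49, permutation p = 0.0514; Spearman rho = 0.40, p = 0.129) and *Nr3c1* with *Nr3c2* (r = 0.48, p = 0.0590; rho = 0.35, p = 0.189). The adjusted p over the 6 pairs was 0.177 for both values of r, so no pair passed. Without CT6 of Group A and CT12 of Group B, the libraries farthest from the median of *Nr3c2*, its r with *Fkbp5* was 0.25 (permutation p = 0.390) and thus rests on these libraries. Without CT0 of Group A and CT12 of Group B, the libraries farthest from the median of *Nr3c1*, the r of the receptors was 0.59 (permutation p = 0.0277). Leaving out CT12 of Group B alone lowered it to 0.28, and leaving out CT0 of Group A alone raised it to 0.74. Within groups, the r of the receptors was 0.11 in Group A (exact permutation p = 0.812) and 0.86 in Group B (exact permutation p = 0.00692). The difference between the groups did not pass (permutation p = 0.183, over splits of values centered on their group means). These within-group p-values were not adjusted over pairs and groups. For comparison, 0.475% of the other genes had an r with *Nr3c1* in Group B at least as high, and 0.533% with *Nr3c2*. The Group A value is not fixed in sign, as it was -0.62 without CT6 and 0.52 without CT0, whereas in Group B it stayed between 0.72 and 0.91 with 1 library left out.

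*Fkbp5* and *Sgk1* had an r of -0.11 over all libraries (permutation p = 0.695; rho = -0.12, p = 0.650), but opposite signs within the groups. In Group A, r was -0.67 (exact permutation p = 0.0635, n = 8), as CT12 had the lowest *Fkbp5* and the highest *Sgk1* and CT6 combined high *Fkbp5* with the lowest *Sgk1*. In Group B, r was 0.80 (exact permutation p = 0.0172, n = 8), as CT3, CT6, CT15 and CT0 were high in both genes. The difference of the Fisher-transformed correlations was 1.90. After each gene was centered on its group means, the permutation p over the 12870 splits into 8 and 8 was 0.0121 (two-sided). Centering used the observed groups, so this p is approximate. After adjustment over the 6 pairs this was 0.0727, which did not pass, and the test was chosen after these values were seen. With 1 library left out at a time, r stayed between -0.79 and -0.54 in Group A and between 0.76 and 0.96 in Group B. Over all libraries, r was 0.34 without CT0 and CT6 of Group A, the libraries farthest from the median of *Fkbp5* (permutation p = 0.239). For comparison, 48 of the other 13684 genes (0.351%) had a difference at least as large in their correlation with *Fkbp5*, and 100 (0.731%) in that with *Sgk1*. Points in these correlations share a library, a litter and a time of day.

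**Figure D5:**
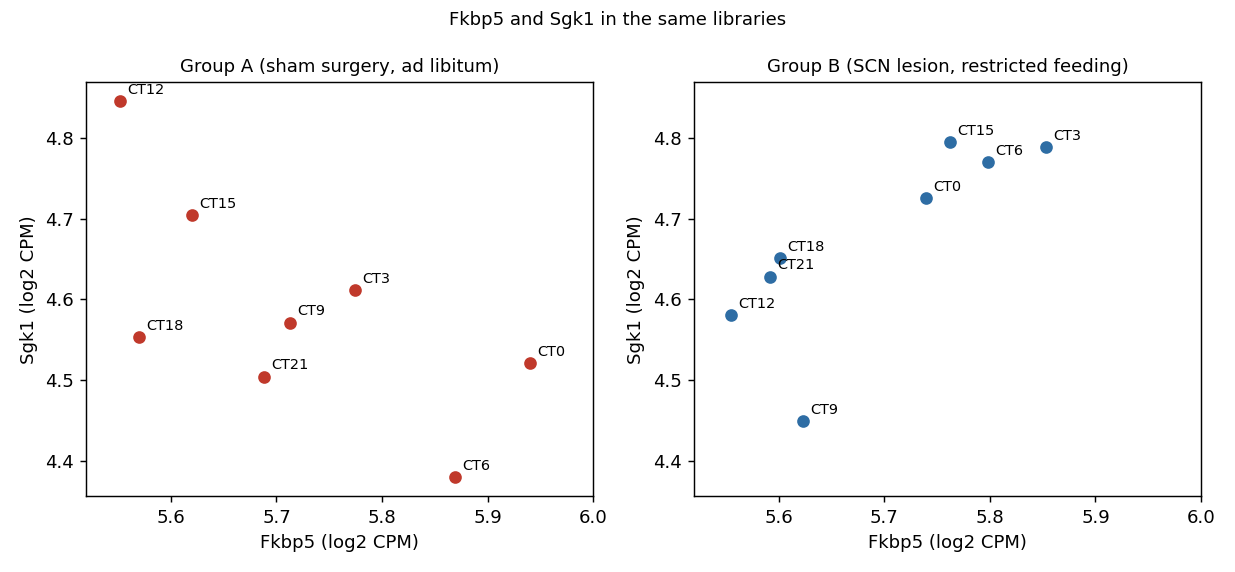
Level of *Sgk1* (log2 CPM, y axis) against that of *Fkbp5* (log2 CPM, x axis) in Group A (left, red) and Group B (right, blue), 1 point per library, named by its circadian time. The axes are the same in both panels and do not start at 0. The points run downward in Group A (r = -0.67) and upward in Group B (r = 0.80).

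The gene most like each of the 4 in log2 CPM over the 16 libraries was sought among all 13684 others, as a description. It was ENSRNOG00000021201 for *Nr3c1* (r = 0.84), ENSRNOG00000033531 for *Nr3c2* (r = 0.87), ENSRNOG00000013013 for *Fkbp5* (r = 0.84) and ENSRNOG00000050453 for *Sgk1* (r = 0.76). The symbols of these genes were not known here. The number of genes with an r above 0.8 was 17 for *Fkbp5*, 10 for *Nr3c2*, 6 for *Nr3c1* and 0 for *Sgk1*, and none of the 4 was the closest gene of another of the set.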

How the data were processed

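RNA-Seq of pooled fetal SCN was available as 1 table of 16 libraries. The authors depleted rRNA, enriched polyA RNA, made stranded libraries, mapped single-end reads to rn6 (Rnor_6.0) with HISAT2 2.1.0 and named Salmon and StringTie for counting, and they deposited whole-number counts per Ensembl gene without normalization or filter. Whether counting used the strand is not given in the sources used here. Each of the 16 columns carries the letter of its group and its time, which gave its sample, and 0 columns belonged to other samples. No pair of libraries was identical (0 pairs).

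The rest was computed here in R 4.3.3 with edgeR 4.0.16 (TMM, quasi-likelihood F test, Benjamini-Hochberg over the 13685 genes that reached 1.5 CPM in 3 or more libraries) and DESeq2 1.42.0 (alternative tests, and size factors and dispersions for model selection), and in Python 3.11.15 with scipy 1.17.1. Model selection followed dryR with 5 negative binomial models and a weight threshold of 0.5. Correlations used log2 CPM with a prior count of 1, with 1e+05 resamples over 16 libraries and all orders within groups of 8. Intervals on CPM are exact 95% Poisson intervals and cover counting error only, at the depth of 10047500 to 18738585 counts. The group comparison, the common cosine and the *ABsync* assignment were tried on simulated counts. The planted effects were larger than those of the 4 genes, and the other steps were not tried in this way.

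Circadian times were checked as pairs across the groups. Deviations of same-time libraries from their group means correlated between -0.17 and 0.13, with 1 of 8 pairs above 0.1, so the times were not taken to pair libraries.

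The 4 genes and all gene lists were chosen with earlier results of these data known. The rule for named genes was the 4 genes, the 3 most similar genes of each and genes of fixed pathway lists. Only the most similar gene of each is printed. Pathway lists (receptor chaperones, coregulators and other glucocorticoid targets among them) and cell type markers were not analysed here, because no table at hand links Ensembl identifiers to symbols, and symbols of the 4 genes came with their selection. Alternatives were other size factors, no filter or at least 10 counts in every library, DESeq2, circadian time as a block and cosines as covariates. Leaving out CT0 and CT12, a prior count of 0.5 and each library left out in turn were further ones. For model selection, they were a weight threshold of 0.75 and Gaussian fits to CPM without TMM scaling. Promoters are RefSeq sequences of GRCr8.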

Additional observations from a re-analysis of the deposited data

Results flagged for a closer look

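The ratio of *Nr3c1* to *Nr3c2* counts at CT12 of Group B was 18.5, and its gap to the next library of the group, 11.1, took up 0.647 of the group's whole range, above Dixon's 95% critical value for 8 values. Of 10 such comparisons made here (the 4 genes and the ratio, in each group), 1 exceeded it. For normally distributed values, chance gives about 1 in 20, or 0.5 of 10. The library held 17 counts of *Nr3c2* and 314 of *Nr3c1*. The level of *Nr3c2* itself in that library (1.18 CPM) did not exceed it (0.346 of the range). A ratio over so few counts need not be normally distributed. Neither the inverse ratio nor its logarithm was tested, so the flag may depend on the scale chosen.

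The correlation of *Fkbp5* with *Sgk1* differed between the groups by 1.90 on Fisher's scale (r = -0.67 in Group A and 0.80 in Group B, n = 8 libraries each). The permutation p on values centered on their group means was 0.0121, and 0.0727 after adjustment over 6 pairs. With DESeq2 size factors in place of TMM, the permutation p was 0.0131. The pair was chosen after its values were seen, and the adjusted p did not pass.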

How the results depend on the processing

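Among 658 alternative tests of the level, cosine and night against day of the 4 genes (correlations are given apart), 0 gave an adjusted p below 0.05, and the lowest was 0.0623, for the common cosine of *Fkbp5* without CT15 of Group B (edgeR). With 1 library left out at a time, that ratio stayed between 0.22 and 0.31. With circadian time as a replicate block, 0 genes differed between the groups and the values were 0.03 for *Nr3c1*, -0.27 for *Nr3c2*, -0.03 for *Fkbp5* and 0.09 for *Sgk1*, so the block changed no call. Only 1 of the 16 libraries was most alike to the library of its own time in the other group. Counts over all genes moved more. With no filter on low counts, edgeR called 3 genes for the cosine of Group A, 21 for that of Group B, 22 and 19 for night against day in Group A and Group B and 2 for the difference of these. DESeq2 called 266 for the common cosine, 26 and 133 for those of Group A and Group B, 4 for their difference, 20 and 67 for night against day and 1 for its difference. Leaving out 1 library gave 1 to 86 genes for the common cosine, 0 to 3 and 1 to 24 for those of Group A and Group B, 0 to 2 for their difference, and 0 to 5 and 0 to 2 for night against day. The fewest genes for the common cosine came without CT3 or CT18 of Group A (1 each), and the most without CT15 of Group A (86). Model selection gave 1319 to 1703 rhythmic genes with 1 library left out, 418 at a weight threshold of 0.75 and 3434 with Gaussian fits. At 0.75, none of the 4 genes was assigned, and with Gaussian fits *Nr3c1* was not (0.441). The cause of these shifts was not tested.

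Signs of small values changed. Without CT0 and CT12, 0 genes were called for night against day in Group B, and the differences became 0.00835 for *Nr3c1*, 0.29 for *Nr3c2* and 0.023 for *Sgk1* there, and 0.078 for the difference between the groups of *Nr3c1*. With 1 library left out, Group B against Group A ranged from -0.015 to 0.067 for *Nr3c1* and from -0.052 to 0.00493 for *Fkbp5*. Night against day ranged from -0.11 to 0.079 for *Nr3c1* in Group A, and in Group B from -0.13 to 0.027 for *Nr3c1*, from -0.30 to 0.25 for *Nr3c2* and from -0.097 to 0.014 for *Sgk1*. The difference between the groups for *Nr3c1* ranged from -0.14 to 0.059. The r of *Sgk1* ranged from -0.17 to 0.26 with *Nr3c1*, from -0.14 to 0.25 with *Nr3c2* and from -0.23 to 0.092 with *Fkbp5*. The r of the receptors ranged from 0.28 (without CT12 of Group B) to 0.74 (without CT0 of Group A). It passed in 1 case, the latter (permutation p adjusted over the 6 pairs = 0.0129). The low counts of *Nr3c2* limit its precision, and 1 library per time leaves no replicate of any time point.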
